A study of Mus musculus with 23 samples.

Results

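The *Reg* (regenerating islet-derived) family was examined in the head of the mouse pancreas before and after caerulein pancreatitis. The family was taken by gene symbol as 6 genes, *Reg1*, *Reg2*, *Reg3a*, *Reg3b*, *Reg3d* and *Reg3g*, of the 18512 symbols in the count files. All 6 passed the filter on low counts in both fits used. They were tested among 12195 genes in the time point fit, with sex as a covariate. In the fit of sex and time point, with 1 group for each sex at each time, they were tested among 12933 genes. The symbol of *Reg4*, a further member of the family, was not in the count files. The mice were C57BL/6 from Charles River, 6 to 8 weeks old. The 8 baseline mice (mice 1 to 4 female, 5 to 8 male) were not injured. The 8 day 7 mice (9 to 12 female, 13 to 16 male) and the 7 day 14 mice (17 to 19 female, 21 to 24 male) had received caerulein, a cholecystokinin analogue that overdrives secretion by acinar cells, at 50 µg/kg in 8 injections a day on 2 days, and were sampled 7 or 14 days after injury. Each library came from 1 mouse and from whole tissue next to the duodenum, so that fewer cells of a type and less RNA per cell cannot be told apart. Cage, litter and collection day are not in the labels, so that sex cannot be told apart from anything shared by the mice of 1 sex.

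*Reg* genes encode small secreted proteins built around a C-type lectin fold. *Reg1* encodes lithostathine, or pancreatic stone protein, which acinar cells secrete with the digestive enzymes, and *Reg2* is its close relative. *Reg3b* encodes pancreatitis-associated protein, *Reg3g* an antibacterial lectin best known from the intestinal epithelium, and *Reg3d* a protein related to islet neogenesis-associated protein. *Reg3* genes are known to be raised in injured epithelia by interleukin-22 and interleukin-6 through the transcription factor STAT3, and the glycosyltransferase EXTL3 has been proposed as a receptor for Reg proteins.

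The 6 genes lie side by side on chromosome 6 of the mm10 (GRCm38) genome, and no other gene of the GENCODE vM21 annotation lies between them. The cluster runs from chr6:78370657 to chr6:78468872, a span of 98216 bases. In order, it holds *Reg3b* (chr6:78370657-78373466, plus strand), *Reg3d* (chr6:78375874-78378865, minus), *Reg3a* (chr6:78380709-78383827, plus), *Reg2* (chr6:78395623-78408106, plus), *Reg1* (chr6:78422711-78428667, plus) and *Reg3g* (chr6:78466269-78468872, minus). The gaps between neighbours ranged from 1843 bases between *Reg3d* and *Reg3a* to 37601 bases between *Reg1* and *Reg3g*. The coding sequences of *Reg1* and *Reg2* were 78.8% identical, those of the *Reg3* genes 64.8% to 76.0%, and those of *Reg1* or *Reg2* and a *Reg3* gene 54.0% to 59.1%. At the read length of 75 bases the copies could be told apart. No window of 75 bases of the transcripts of *Reg1* or of any *Reg3* gene occurred in a transcript of another gene, and 40 of 874 windows of *Reg2* did, in each case outside the family.

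**Figure D1:**
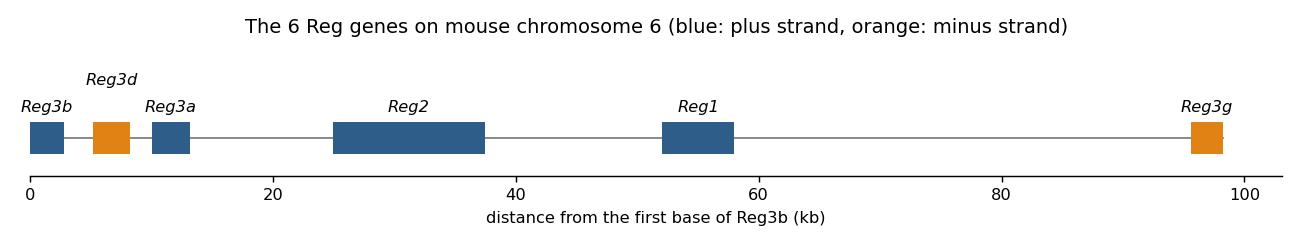
Positions of the 6 *Reg* genes on chromosome 6, as distance in kilobases from the first base of *Reg3b*. Blue boxes are genes on the plus strand and orange boxes genes on the minus strand, drawn to scale; *Reg3b*, *Reg3d* and *Reg3a* are packed together and *Reg3g* stands 37601 bases beyond *Reg1*.

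Because the members varied together between mice, as described below, the promoters of 4 of them are shown here: the acinar pair *Reg1* and *Reg2*, and *Reg3b* and *Reg3g*, which had the most similar promoters. Each is the run of 250 bases before the RefSeq transcription start in GRCm38.p6, on the gene's own strand: chr6:78425733-78425982 (plus) for *Reg1*, chr6:78404905-78405154 (plus) for *Reg2*, chr6:78370635-78370884 (plus) for *Reg3b* and chr6:78468875-78469124 (minus) for *Reg3g*. The RefSeq starts of *Reg1*, *Reg2* and *Reg3b* lie inside the GENCODE spans given above. Capitals mark matches to TATAAA (the TATA box), TTCNNNGAA (the core of STAT sites), and CACCTG and TTTCCC (the E-box and TC-box that the acinar factor PTF1 binds), each searched on both strands.

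Reg1: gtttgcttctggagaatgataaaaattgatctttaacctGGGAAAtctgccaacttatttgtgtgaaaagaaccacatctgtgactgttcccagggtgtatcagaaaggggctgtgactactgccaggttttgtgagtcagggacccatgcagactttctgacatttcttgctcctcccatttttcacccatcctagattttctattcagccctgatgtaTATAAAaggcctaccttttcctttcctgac
Reg2: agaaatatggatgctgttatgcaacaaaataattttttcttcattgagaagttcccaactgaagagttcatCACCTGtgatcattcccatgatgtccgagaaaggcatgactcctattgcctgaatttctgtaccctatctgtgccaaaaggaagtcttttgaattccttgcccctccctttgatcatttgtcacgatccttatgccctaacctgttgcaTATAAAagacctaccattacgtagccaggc
Reg3b: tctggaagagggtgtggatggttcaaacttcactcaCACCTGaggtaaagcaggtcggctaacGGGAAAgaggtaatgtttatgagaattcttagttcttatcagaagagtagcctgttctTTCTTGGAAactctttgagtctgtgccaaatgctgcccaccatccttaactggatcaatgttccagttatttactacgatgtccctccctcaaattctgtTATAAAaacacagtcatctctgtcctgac
Reg3g: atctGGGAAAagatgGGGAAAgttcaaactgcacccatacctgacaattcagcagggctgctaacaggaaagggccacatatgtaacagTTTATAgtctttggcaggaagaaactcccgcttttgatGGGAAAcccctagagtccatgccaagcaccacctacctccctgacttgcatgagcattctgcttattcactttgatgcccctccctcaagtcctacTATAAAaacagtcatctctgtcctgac

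A TATA box began 30 bases before the start of *Reg1* and of *Reg2*, 29 before that of *Reg3b* and 27 before that of *Reg3g*, where a reverse match also stood at 161. The letters TATAAA occurred in 12.97% of the 27025 RefSeq promoters of the same length, and in neither *Reg3a* nor *Reg3d*. The STAT core, held by 7.18% of promoters, occurred in *Reg3b*, as TTCTTGGAA 129 bases before the start, and in *Reg3d*, at 238 bases and overlapping a TC-box match. CACCTG (17.1% of promoters) occurred in *Reg2*, *Reg3a*, *Reg3b* and *Reg3d*, and TTTCCC (21.9%) in *Reg1*, *Reg3b*, *Reg3d* and *Reg3g*. The promoters of *Reg3b* and *Reg3g* were 68.4% identical over their 250 bases, against 42.5% to 54.4% for the other 14 pairs. A match describes the letters in these windows and is not evidence of binding.

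Total counts were 7059890 to 9567446 per mouse, and 14641 to 16653 symbols had at least 1 count. Levels are given as CPM, counts scaled to 1e+06 of the library size after TMM scaling (factors 0.769 to 1.40). Acinar transcripts were abundant: 20 of 21 acinar markers were in the files and together made 321965 to 770524 CPM in every mouse. At day 7, 9 of these 20 acinar markers were lower than at baseline by the test used below, and 7 of 10 macrophage, 6 of 9 fibroblast and stellate cell, 8 of 12 islet and 4 of 10 duct markers were higher, where 5.13% of all genes were called in either direction. None of the 6 endothelial, 6 adipocyte and 5 lymphocyte markers tested was called by edgeR or DESeq2, 2, 0 and 0 of them having an unadjusted p of at most 0.05. No neutrophil marker passed the filter in the comparison of time points. Of the 2 intestinal epithelium markers tested, *Fcgbp* was lower at day 7, and DESeq2 called 1 gene of that list higher and 1 lower. The 1 Paneth cell marker tested was not called by edgeR or DESeq2, nor did it have an unadjusted p of at most 0.05. At day 14, 2 of 9 fibroblast markers were higher and no other marker was called. An unadjusted p of at most 0.05 was held by 14 of 20 acinar, 7 of 12 islet and 5 of 9 fibroblast markers. It was also held by 2 of 10 macrophage, 1 of 10 duct and 1 of 2 intestinal epithelium markers. The median log2 change was -0.27 for acinar, 0.67 for islet and 0.42 for fibroblast markers, beside 0.006 for all genes. The acinar sum of baseline females (527406 to 693169 CPM) overlapped that of baseline males (632804 to 770524), and at day 7 the sums were 321965 to 471421 in females and 376409 to 474628 in males. The part of these shifts in the results on the *Reg* genes was not tested. Since the tissue borders the duodenum, 14 of 20 intestinal epithelium markers found in the files were summed: they made 5.39 to 12.0 CPM in every mouse except mouse 19, with 57.6 CPM. The 4 Paneth cell markers in the files made 0.460 to 6.34 CPM.

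*Reg1* was among the most abundant transcripts of the tissue, and the other members ranked below it. By mean CPM *Reg1* ranked 20th of 18512 symbols at baseline, 15th at day 7 and 19th at day 14. *Reg3g* ranked 9024th at baseline, 561st at day 7 and 2316th at day 14. *Reg3b* moved from rank 1228 at baseline to 47 at day 7 and 72 at day 14, and *Reg3a* from 5992 to 178 and 1080. The day 14 ranks of these genes rest on mouse 17: from baseline to day 14 the median went from 22.5 to 14.9 CPM for *Reg3b* and from 4.63 to 2.70 CPM for *Reg3a*, while the means were 8.73 and 5.72 times higher. The day 7 ranks of *Reg3b* and *Reg3a* rest largely on mice 14 and 16, the highest day 7 mice for both genes. At day 7 the mean of *Reg3b* was 654 CPM and its median 115 CPM. For *Reg3a* the mean was 206 CPM and the median 11.2 CPM. Per kilobase of transcript the order of the baseline medians in females was *Reg1* (26438 CPM per kilobase), *Reg2* (1245), *Reg3d* (315), *Reg3b* (105), *Reg3a* (20.7) and *Reg3g* (7.64). In females *Reg2* (494 to 3322) lay above *Reg3d* (280 to 422), whereas in baseline males *Reg3d* (131 to 176) came after *Reg1* (4889 to 6880), and *Reg3b* (6.93 to 10.9) and *Reg2* (7.71 to 9.98) overlapped. *Reg1* came first in every group of sex and time point.

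Together the 6 genes took 0.317% to 3.71% of all counts of a mouse. The share was 1.68% to 2.10% in baseline females and 0.317% to 0.445% in baseline males. It was 1.303% to 2.24% in day 7 females, 1.11% to 3.71% in day 7 males, 1.11% to 2.97% in day 14 females and 0.612% to 0.922% in day 14 males. *Reg1* made 88.2% to 97.8% of the *Reg* counts in 20 of the 23 mice. In the day 7 males 14 and 16 and the day 14 female 17 it made 68.1% to 70.9%, and *Reg2* and *Reg3b* made up most of the rest.

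**Figure D2:**
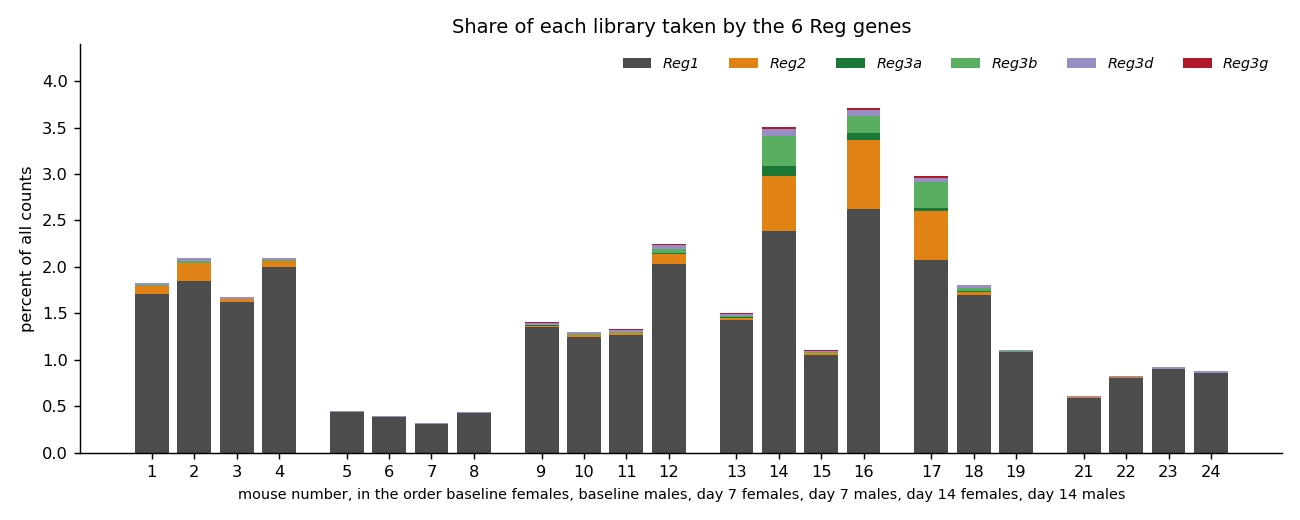
Percent of all counts of each mouse taken by the 6 *Reg* genes, stacked by gene, with mice numbered along the horizontal axis in the order of sex and time point. The 4 baseline males hold 0.317% to 0.445% and the day 7 males 14 and 16 hold 3.50% and 3.71%.

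The first comparison asked how the sexes differed before injury. Every baseline female lay above every baseline male for all 6 members. This arrangement held for 2% of the 12195 genes. *Reg1* was 4.29-fold higher in females and was the member called a differentially expressed gene (DEG), meaning at least 1.5-fold different and with an adjusted p-value no higher than 0.05 in edgeR's quasi-likelihood test. In all, 0.0696% of 12933 genes were DEGs between the sexes at baseline.

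*Reg1* measured 20697, 21339, 18622 and 19965 CPM in the baseline females and 4752, 4935, 3759 and 5291 CPM in the males. The means were 20156 ± 1166 (SD, n = 4) and 4684 ± 656 CPM (SD, n = 4). The lowest female was 3.52 times the highest male, and the difference was 2.10 on the log2 scale (SE 0.28, adjusted p = 8.57e-04, edgeR). It was called under each alternative and with each mouse left out. *Reg2*, its close relative, measured 1089.7, 2319, 345 and 648 CPM in females and 5.42, 5.38, 6.94 and 6.96 CPM in males. The lowest female was 49.5 times the highest male, and the fitted difference was 7.47 on the log2 scale (SE 1.69, adjusted p = 0.137). The spread among females was 6.72-fold between the highest and the lowest, against 1.15-fold for *Reg1*. *Reg2* was not a DEG by edgeR, and it was one by DESeq2 and without mice 14, 16 and 17, a choice made after seeing the data.

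The *Reg3* genes also had every female above every male. *Reg3b* measured 127, 175, 36.5 and 38.03 CPM in females and 5.42, 7.12, 8.56 and 7.14 CPM in males (log2 difference 3.74, SE 1.45, adjusted p = 0.725). *Reg3d* was at 238, 330.0, 219 and 254 CPM in females and 103, 137, 128 and 117 CPM in males (1.10, SE 0.42, adjusted p = 0.725). *Reg3a* was at 20.6, 33.3, 8.03 and 13.6 CPM in females. In males it had 10, 4, 0 and 6 counts, at most 1.23 CPM, and the count of 0 in mouse 7 allows up to 0.484 CPM (3 counts). *Reg3g* was low in both sexes, with 3.09 to 9.13 CPM in females and 0.694 to 2.61 CPM in males, and its lowest female was 1.18 times its highest male. None of these 4 differences passed the test, although 4 of the 6 members, *Reg1*, *Reg2*, *Reg3b* and *Reg3d*, had an unadjusted p of at most 0.05.

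**Figure D3:**
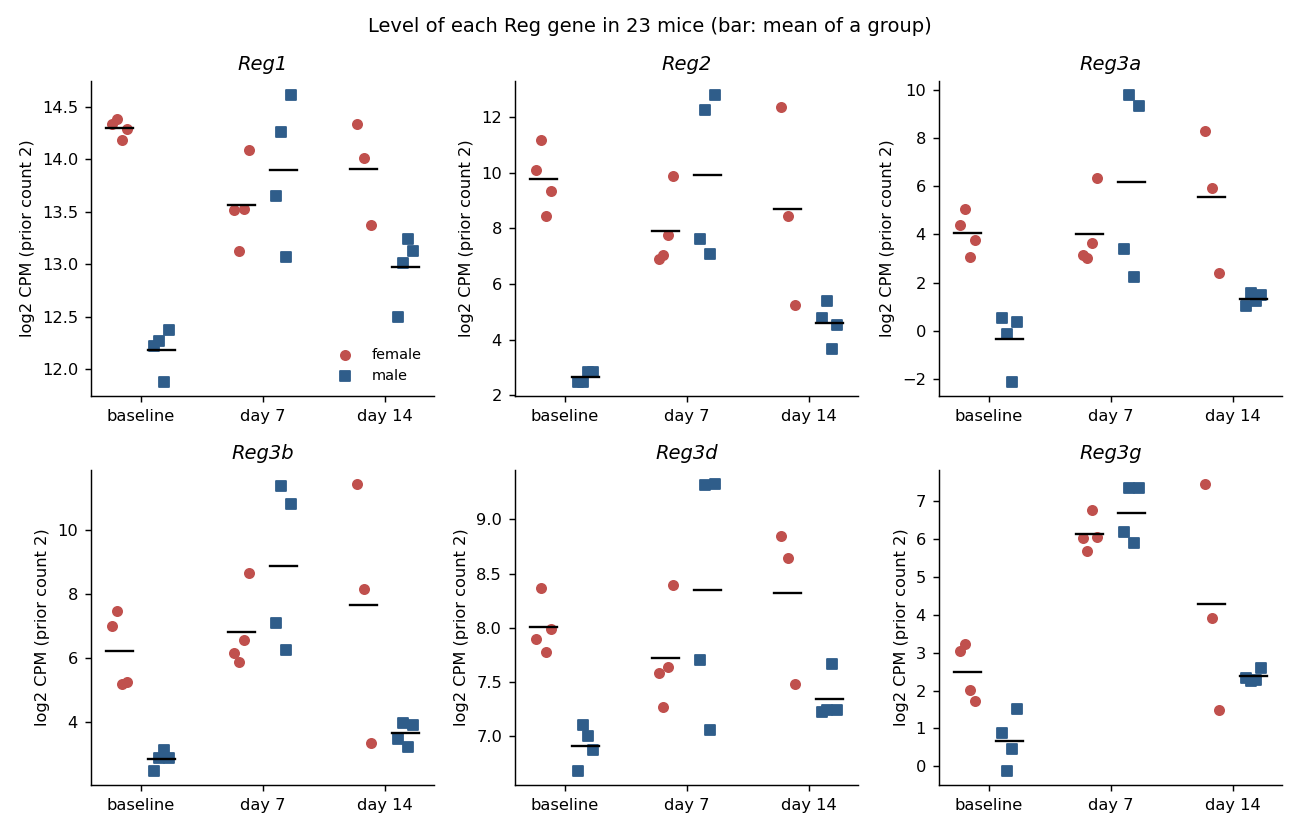
Level of each *Reg* gene in each of the 23 mice, as log2 CPM with a prior count of 2, by time point, with females as red circles, males as blue squares and the group mean as a bar. At baseline the females lie above the males for all 6 genes; at day 7 mice 14 and 16 lie above the other males, and at day 14 mouse 17 lies above the other females.

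At day 7 post-injury all 6 members had risen in males, and *Reg3g* alone among the members in females. In males 6 of 6 members were DEGs, where 4.12% of all genes were. For 5 of the 6 every day 7 male lay above every baseline male, an arrangement found for 6.61% of genes. The exception was *Reg3d*, whose lowest day 7 male (133 CPM) lay under its highest baseline male (137 CPM). In females 1 of 6 was a DEG, where 1.89% of all genes were, and *Reg3g* was also the only member with every day 7 female above every baseline female (5.3% of genes).

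*Reg3g* was the member whose day 7 values lay above baseline in every mouse of both sexes. It measured 65.2, 51.2, 109 and 66.7 CPM in the day 7 females and 72.1, 163, 59.6 and 164 CPM in the day 7 males. All 8 values lay above all 8 baseline values, which reached 9.13 CPM, as for 1.16% of genes. The rise was 3.62 on the log2 scale in females (SE 0.87, adjusted p = 0.0240) and 6.23 in males (SE 1.08, adjusted p = 0.00172). The call in females was lost when any of the baseline females 1 to 4 was left out (adjusted p up to 0.0761) and the call in males was not lost with any mouse left out.

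*Reg3b*, pancreatitis-associated protein, reached its highest levels in a few mice. It measured 136, 2616, 76.2 and 1770.4 CPM in the day 7 males 13 to 16, so that mice 14 and 16 lay more than 10 times above the others of their group. The change in males was 7.36 on the log2 scale (SE 1.58, adjusted p = 0.00796). In the day 7 females it measured 70.9, 59.0, 95.3 and 406 CPM, overlapping the baseline females (0.75, SE 1.16, adjusted p = 0.768). *Reg2* had the same arrangement among males, with 199, 4873, 134 and 7038 CPM against at most 6.96 CPM at baseline (8.95, SE 1.78, adjusted p = 0.00483). In day 7 females *Reg2* measured 120.2, 131, 218 and 956 CPM, and 3 of these 4 values lay under the lowest baseline female (345 CPM). The fitted change was -1.62 (SE 1.23, adjusted p = 0.489), which did not pass the test.

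*Reg1* rose in males, and in females its values were lower without passing the test. It measured 12841, 19585, 8562 and 24989.8 CPM in the day 7 males, 3.52-fold above baseline (log2 fold change 1.81, SE 0.28, adjusted p = 3.82e-04). In the day 7 females it measured 11720.1, 8942, 11807 and 17430 CPM, and in these TMM-scaled levels all 4 lay below every baseline female. That difference was -0.70 on the log2 scale (SE 0.27, unadjusted p = 0.0187, adjusted p = 0.155 in edgeR) and did not pass the test. Its size depended on the processing: under 6 alternatives it was -0.70 to -0.28, and none called it. *Reg3a* was at 10.2, 873, 4.48 and 651 CPM in the day 7 males against at most 1.23 CPM at baseline (8.93, SE 2.04, adjusted p = 0.0118), and at 8.71, 7.79, 12.1 and 81.0 CPM in the females (0.53, SE 1.34, adjusted p = 0.866). *Reg3d* was at 208, 638, 133 and 642 CPM in the males (1.74, SE 0.43, adjusted p = 0.0173), a call lost without mouse 8, 14 or 16 (adjusted p up to 0.0615), and at 154 to 337 CPM in the females (-0.24, SE 0.41, adjusted p = 0.787).

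Mice 14 and 16 were the highest day 7 mice for all 6 members, and the fits were repeated without them and without mouse 17, a choice made after seeing the data. In males 3 of the 6 members were then DEGs: *Reg1* (1.18, adjusted p = 0.00818), *Reg2* (4.75, adjusted p = 0.0253) and *Reg3g* (5.42, adjusted p = 1.59e-04). *Reg3b* (3.91, adjusted p = 0.0705), *Reg3a* (3.22, adjusted p = 0.313) and *Reg3d* (0.48, adjusted p = 0.491) were not. Only 2 day 7 males remain in that fit. Intestinal epithelium markers summed to 7.54 CPM in mouse 14 and 7.38 CPM in mouse 16, within the range of the other mice. Acinar markers ranked mouse 14 the 7th and mouse 16 the first of the 8 day 7 mice, and fibroblast markers ranked mouse 14 first with 1261 CPM.

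**Figure D4:**
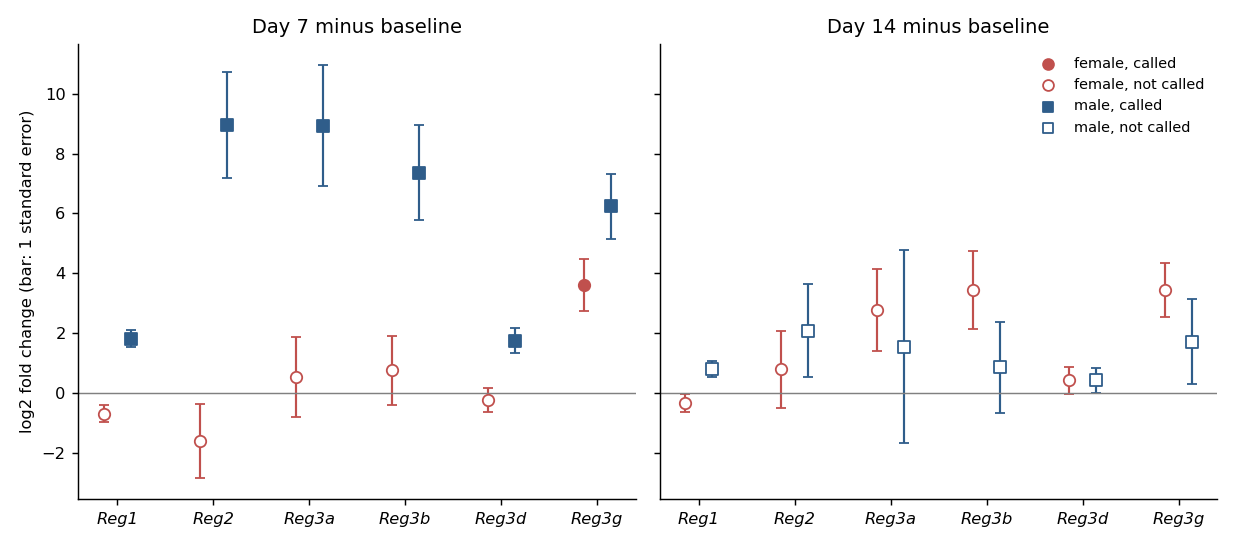
Log2 fold change of each *Reg* gene against baseline at day 7 (left) and day 14 (right), in females (red circles) and males (blue squares), with 1 standard error as a bar and filled symbols for DEGs. At day 7 all 6 male symbols and the female symbol of *Reg3g* are filled; at day 14 none is.

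Over both sexes, with sex as a covariate, 3 of the 6 members were DEGs at day 7, where 5.13% of 12195 genes were. They were *Reg3g* (log2 fold change 4.99, SE 0.89, adjusted p = 6.51e-04), *Reg3b* (5.79, SE 1.78, adjusted p = 0.0277) and *Reg3a* (5.42, SE 1.83, adjusted p = 0.0450). *Reg2* (5.95, SE 2.24, adjusted p = 0.0712), *Reg3d* (0.85, SE 0.39, adjusted p = 0.141) and *Reg1* (0.58, SE 0.36, adjusted p = 0.285) were not called by edgeR. DESeq2 called 4 members, among them *Reg2* (6.32, adjusted p = 1.44e-06), and edgeR called *Reg2* when any of the day 7 females 9 to 12 was left out (adjusted p down to 0.0308). This fit takes the change to be the same in both sexes, which the values above do not bear out. The fitted fold of *Reg2* was 61.7 whereas the ratio of its mean CPM was 3.09, and without the covariate *Reg3b* was at 3.69 (adjusted p = 0.0722). *Reg3a* lost its call with 15 of the 23 mice left out in turn (mice 1, 3 to 8, 14, 16 to 18 and 21 to 24, adjusted p up to 0.0870) and *Reg3b* with each of the baseline males 5 to 8 (up to 0.0600). Without mice 14, 16 and 17 only *Reg3g* was called among the members (4.2002, adjusted p = 2.46e-06). Scaling to total counts moved the median of all genes by 0.45 on the log2 scale at day 7, and all 6 members were then called.

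The change at day 7 was compared directly between the sexes. For *Reg1* the change in females minus that in males was -2.51 on the log2 scale (SE 0.39, adjusted p = 0.0369), and *Reg1* was the only gene of 12933 that passed this test, or 0.00773%. The call is fragile. It was lost with 15 of the 23 mice left out in turn (mice 1 to 7, 9 to 11, 14, 18 and 22 to 24, adjusted p up to 0.189), with no filter on low counts (0.0864) and without mice 14, 16 and 17 (-1.88, adjusted p = 0.0743). The difference was negative for all 6 members, and 5 of the 6 had an unadjusted p of at most 0.05. It was -10.6 for *Reg2* (adjusted p = 0.124), -8.40 for *Reg3a* (0.611), -6.61 for *Reg3b* (0.492), -1.99 for *Reg3d* (0.576) and -2.61 for *Reg3g* (0.947). DESeq2 called 4 members in this comparison.

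At day 7 itself the order of the sexes was no longer that of baseline. Mean levels were lower in females for all 6 members, from 0.0712 times the male mean for *Reg3a* to 0.756 times for *Reg1*, and the ranges of the sexes overlapped for each member. None was a DEG by edgeR or DESeq2, where 0.0619% of genes were by edgeR, and 4 had an unadjusted p of at most 0.05. Without mice 14, 16 and 17 all 6 differences changed sign, to between 0.15 (*Reg3g*) and 1.89 (*Reg3a*), and none was called. Averaged over all time points, females were higher by 0.89 for *Reg1* (SE 0.30, adjusted p = 0.285) and by 4.78 for *Reg2* (SE 2.01, adjusted p = 0.458). No member was a DEG in this comparison by edgeR (0.23% of genes), with 2 members at an unadjusted p of at most 0.05 and 3 called by DESeq2.

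At day 14 the mean levels in males lay between those of baseline and day 7 for all 6 members, and the 3 females differed widely. No member was a DEG against baseline in the fit over both sexes (0.787% of genes), in females (0.193%) or in males (0.139%). At an unadjusted p of at most 0.05 there were 1, 2 and 1 members, and DESeq2 called 1, 1 and 0. Even so, every day 14 male lay above every baseline male for all 6 members, an arrangement that held for 2.35% of genes.

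In the day 14 males *Reg1* measured 5779, 8276, 9651 and 8919 CPM, 1.73-fold above baseline (0.79, SE 0.27, unadjusted p = 0.00865, adjusted p = 0.390 in edgeR). *Reg2* was at 27.4, 42.2, 12.4 and 22.6 CPM against at most 6.96 CPM at baseline (2.08, SE 1.55, adjusted p = 0.826). *Reg3b* was at 10.96, 15.7, 9.17 and 14.9 CPM (0.85, SE 1.52, adjusted p = 0.977) and *Reg3g* at 4.84, 4.57, 4.65 and 5.85 CPM (1.71, SE 1.42, adjusted p = 0.861). *Reg3a* was at 1.83 to 2.70 CPM and *Reg3d* at 149.6 to 202 CPM. The spread differed by member. The CV over the 4 males was 12.0% for *Reg3g* and 24.7% for *Reg3b*, against 49.3% and 109% over the 4 day 7 males. For *Reg2* the CV was 47.3%, against 113% in the day 7 males and 14.5% in the baseline males.

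The 3 day 14 females fell in the same order for every member. Mouse 17 had 20726 CPM of *Reg1*, 5279.7 of *Reg2*, 2751 of *Reg3b*, 317 of *Reg3a*, 460.0 of *Reg3d* and 175 of *Reg3g*, and its *Reg3b* and *Reg3g* were the highest of all 23 mice. Mouse 18 lay between, with 16544 CPM of *Reg1*, 349 of *Reg2*, 284 of *Reg3b*, 61.4 of *Reg3a*, 399 of *Reg3d* and 15.01 of *Reg3g*. Mouse 19 had 10586 CPM of *Reg1*, 38.3 of *Reg2*, 9.996 of *Reg3b*, 4.998 of *Reg3a*, 178 of *Reg3d* and 2.55 of *Reg3g*, each below the lowest baseline female. Intestinal epithelium markers summed to 8.41 CPM in mouse 17, 7.29 in mouse 18 and 57.6 in mouse 19, the mouse with the lowest *Reg* levels of the 3.

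Against baseline females the fitted changes at day 14 were 3.44 for *Reg3g* (SE 0.90, adjusted p = 0.162), 3.43 for *Reg3b* (SE 1.29, adjusted p = 0.382), 2.77 for *Reg3a* (SE 1.38, adjusted p = 0.555), 0.78 for *Reg2* (SE 1.29, adjusted p = 0.926), 0.41 for *Reg3d* (SE 0.44, adjusted p = 0.844) and -0.34 for *Reg1* (SE 0.29, adjusted p = 0.787). Without mouse 17 they were 0.57 for *Reg3g*, 0.65 for *Reg3b*, 0.82 for *Reg3a*, 0.15 for *Reg3d*, -0.57 for *Reg1* and -2.498 for *Reg2*, none of them called. Females exceeded males at day 14 in the mean of every member, from 1.96-fold for *Reg1* to 80.0-fold for *Reg3b*. The latter rests on mouse 17, without which the fitted log2 difference of *Reg3b* was 3.54 in place of 6.32. Only for *Reg1* and *Reg3a* did the ranges of the sexes not overlap, and no member was a DEG by edgeR (0.0619% of genes). All 6 had an unadjusted p of at most 0.05, and DESeq2 called 4. Leaving out mouse 19 gave *Reg3g* an adjusted p of 0.0246. For the change at day 14 no member passed the test of a difference between the sexes (0% of genes did in edgeR), with 1 member at an unadjusted p of at most 0.05 and none called by DESeq2.

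Between day 7 and day 14 all 6 members had a negative fitted change, from -5.08 for *Reg2* (SE 2.12, adjusted p = 0.275) and -2.14 for *Reg3g* (SE 0.76, adjusted p = 0.183) to -0.48 for *Reg1* (SE 0.36, adjusted p = 0.585). No member was a DEG by edgeR (0.377% of genes), 2 had an unadjusted p of at most 0.05, and DESeq2 called 4. Without mice 14, 16 and 17 the changes of *Reg1* (0.034) and *Reg3d* (0.23) were positive, neither of them called. The value of *Reg3g* turned on mouse 17. Without that mouse it was -3.90 (adjusted p = 2.32e-04), and without mice 14, 16 and 17 it was -3.32 (adjusted p = 3.86e-04).

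Differences between mice of the same sex and time point were large in this family. The biological coefficient of variation within groups, as fitted by edgeR, was 1.16 for *Reg3a*, 1.07 for *Reg2*, 1.02 for *Reg3b*, 0.730 for *Reg3g*, 0.395 for *Reg3d* and 0.265 for *Reg1*. The median of the 12933 genes was 0.141, and the members stood between the 78.9th percentile (*Reg1*) and the 98.5th (*Reg3a*). Over the 4 baseline males the CV was 14.5% for *Reg2* and 18.2% for *Reg3b*, against 78.9% and 72.9% over the 4 baseline females, whereas for *Reg3g* it was 54.5% in males and 50.0% in females.

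The mice that were high for 1 member were high for the others. At day 7 the correlation of log2 CPM over 8 mice was positive for all 15 pairs of members, with Pearson's r from 0.802 to 0.991 and Spearman's rho from 0.857 to 1.0. All passed exact permutation tests adjusted over 60 relations (largest adjusted p 0.0213 for r and 0.0153 for rho). Without the 2 mice farthest from the median of the member on the horizontal axis r ranged from 0.176 to 0.987, and the 5 pairs with *Reg3g* were all under 0.5. At day 14 r over 7 mice ranged from 0.790 to 0.983 and rho from 0.393 to 0.964, and 15 of 15 pairs passed for r but 4 for rho. Without the 2 farthest mice r ranged from -0.844 to 0.704 and was positive for 6 of 15 pairs, so the relation at day 14 rests on those mice. Females and males were pooled in these correlations, and at day 14 the mean of every member was higher in females. The part of sex in them was not tested. No correlation of the levels themselves is given at baseline or over all mice, because the baseline females and males form separate clusters of 4.

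**Figure D5:**
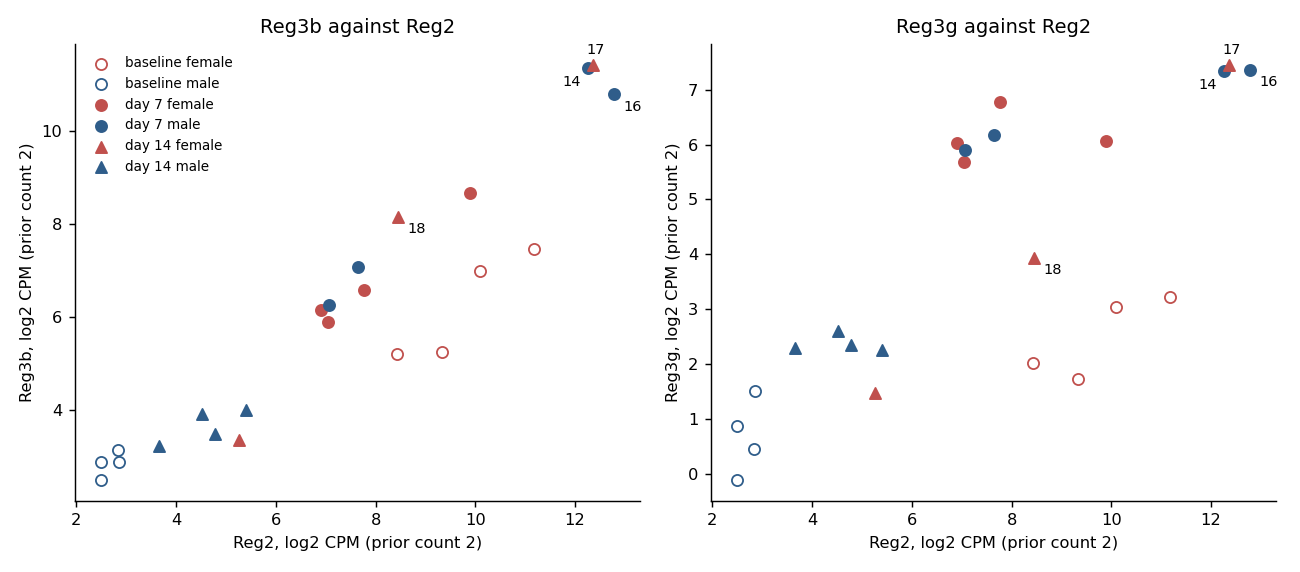
Log2 CPM (prior count 2) of *Reg3b* (left) and *Reg3g* (right) against that of *Reg2* in 23 mice, with open symbols for baseline, filled circles for day 7, triangles for day 14, red for females and blue for males. Mice 14, 16 and 17 lie apart at the top right of both plots; in the plot of *Reg3g* the other day 7 mice lie above all baseline mice in *Reg3g*, though not in *Reg2*.

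The counts of other pathway genes called at day 7 stand beside the 5.13% of all genes called there. Of the receptors, 14 of 15 were tested and 2 rose at day 7: *Il1r1*, the interleukin-1 receptor (0.75, SE 0.14, adjusted p = 4.19e-04), and *Ifngr1*, a chain of the interferon-gamma receptor (0.62, SE 0.18, adjusted p = 0.0188). The median of the 14 was -0.02, beside 0.02 for all genes. The proposed Reg receptor *Extl3* was at a median of 276 CPM at baseline and 236 at day 7 (-0.27, SE 0.06, adjusted p = 0.00280), and the interleukin-22 receptor chain *Il22ra1* at 64.2 and 48.9 CPM (-0.34, SE 0.10, adjusted p = 0.0123), both below the 1.5-fold threshold. None of the 14 was a DEG at day 14 by edgeR or DESeq2, with 2 at an unadjusted p of at most 0.05. Of the cytokine ligands known to raise *Reg3* genes, 9 of 11 were in the files and none had enough counts for the time point fit. The absent ligands were *Il22* and *Il17a*, so that neither has a level here. In the fit of sex and time point 1 ligand was tested, and it was not called between the sexes at baseline. *Il6* had at most 2 counts in any mouse and none in 20 of the 23.

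Of the JAK and STAT3 pathway 11 of 12 genes were tested. None was a DEG at day 7 or day 14 by edgeR or DESeq2, with 5 and 1 at an unadjusted p of at most 0.05. *Stat3* itself was at medians of 37.5 CPM at baseline and 42.2 at day 7 (0.31, SE 0.13, adjusted p = 0.0977), and its feedback inhibitor *Socs3* at 3.36 and 5.78 CPM (0.58, SE 0.18, adjusted p = 0.0209), just under the fold threshold. Among 11 of 21 STAT3 target and acute-phase genes tested, 3 rose at day 7, beside 5.13% of all genes called: the lipopolysaccharide-binding protein *Lbp* (1.201, SE 0.27, adjusted p = 0.00264) and the transcription factors *Cebpd* (0.69, SE 0.16, adjusted p = 0.00273) and *Junb* (0.70, SE 0.24, adjusted p = 0.0392). The median of the 11 was 0.53, and DESeq2 called 6 genes of the list higher at day 7. At day 14 none was called by edgeR, 1 by DESeq2, and 2 had an unadjusted p of at most 0.05.

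Of the list of stress genes of the injured acinar cell, which holds secreted and other proteins, 13 of 15 were tested and 2 rose at day 7, beside 5.13% of all genes called. The median of the 13 was -0.03, and 9 of them had an unadjusted p of at most 0.05. *Agr2*, a protein disulfide isomerase of secretory cells, rose by 2.502 (SE 0.30, adjusted p = 3.82e-06), and *Cd44*, a membrane receptor for hyaluronan, by 1.01 (SE 0.30, adjusted p = 0.0222). *Agr2* was still higher at day 14 (1.42, SE 0.32, adjusted p = 0.0203). It measured 0.705 to 1.85 CPM at baseline and 2.91 to 16.8 CPM at day 7, so that the groups did not overlap, and its highest value was in mouse 14. Of other antimicrobial proteins 7 of 20 were tested, and 2 were called at day 7. The median of the 7 was -0.21, beside 0.02 for all genes, and 5 of the 7 had an unadjusted p of at most 0.05. *Pigr*, which carries secretory antibodies, was higher at day 7 (0.69, SE 0.17, adjusted p = 0.00450) and at day 14 (0.87, SE 0.17, adjusted p = 0.00540), and the macrophage lysozyme *Lyz2* was higher at day 7 (1.12, SE 0.35, adjusted p = 0.0285). In the baseline comparison of the sexes no gene of these lists was called by edgeR, with 0 to 3 genes of a list at an unadjusted p of at most 0.05. DESeq2 was not tabulated for the lists in this comparison. *Stat3* (40.98 to 48.3 CPM in females, 26.9 to 34.0 in males) and *Pigr* (4.30 to 8.40 and 2.75 to 4.07 CPM) had every baseline female above every baseline male, as 2% of genes did, and are named for this after their values were seen. The 3 listed neighbours of the cluster, the nearest counted one being *Ctnna2* at a distance of 390957 bases, had too few counts to be tested.

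The genes with the pattern most like each member were sought by Pearson's r over the 23 mice after the mean of each group of sex and time point was subtracted, among 12194 other genes. This is a description over mice in which the same few libraries are extreme. *Reg2* was most like *Reg3b* (r = 0.967), *Reg3a* (0.923) and *Reg3d* (0.868), *Reg1* most like *Reg3a* (0.891) and *Reg3d* (0.885), and *Reg3g* most like *Reg3b* (0.847) and *Reg2* (0.796). *Reg3g* stood furthest from *Reg3d* (0.555) and *Reg1* (0.589). Outside the family the 5 nearest genes of a member included *Dmbt1*, *Arhgef12* and *Hdac11* for *Reg1* (0.844, 0.825 and 0.816), *Tmc5* and *Tbc1d13* for *Reg2* (0.840 and 0.832), *Itih4* for *Reg3a* (0.875), *Tmc5* for *Reg3b* (0.828), *Naprt* and *Itih4* for *Reg3d* (0.887 and 0.864), and *Tbc1d13*, *Usp54* and *Herc2* for *Reg3g* (0.764, 0.733 and 0.730).

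*Itih4*, an inter-alpha-trypsin inhibitor heavy chain and acute-phase protein, showed the same order of the sexes at baseline. It measured 55.1, 82.1, 47.6 and 45.1 CPM in baseline females and 3.45, 2.26, 3.39 and 4.005 CPM in baseline males (4.12, SE 0.87, adjusted p = 0.106). In the day 7 males it measured 4.61, 63.0, 2.99 and 78.6 CPM, high in mice 14 and 16 (3.49, SE 0.87, adjusted p = 0.0197), and in the day 7 females 6.91 to 19.5 CPM, all below the baseline females (-2.46, SE 0.70, adjusted p = 0.0552). *Tmc5* was a DEG in day 7 males (5.07, SE 1.09, adjusted p = 0.00790), at 2.71, 17.7, 1.31 and 16.4 CPM against at most 0.522 CPM at baseline. *Itih4* and *Tmc5* were picked for varying with a member over these same mice. Their high values in mice 14 and 16 follow from that choice, and their day 7 tests in males are not independent results. *Naprt*, an enzyme of NAD synthesis, was at 9.98 to 14.9 CPM in baseline females and 5.49 to 7.14 CPM in males without passing the test (0.92, SE 0.24, adjusted p = 0.208).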

How the data were processed

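RNA-seq was measured in 23 mice, 1 library each. The authors had left out a further day 14 female because its reads mapped poorly, so that day 14 has 3 females. In the paper, mapping rates were mostly lower at baseline than at day 7. The part of this in the comparisons of time points was not tested. The authors depleted ribosomal RNA, sequenced paired reads of 75 bases, trimmed them with Trim Galore and cutadapt, aligned them to mm10 with STAR (2.5.2a per the labels) and counted uniquely mapped fragments per gene with featureCounts. The deposited values are whole-number counts per gene symbol. The annotation and strand setting used for counting are not given in the sources used here. Total counts were 7059890 to 9567446 per mouse, and 3 counts, taken as the floor, are 0.225 to 0.522 CPM, which covers counting error only.

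Counts were scaled by TMM and tested with edgeR 4.0.16 (R 4.3.3), with robust quasi-likelihood F tests on genes kept by filterByExpr and Benjamini-Hochberg adjustment over all genes tested. Time points over both sexes, and the sexes over all time points, were compared in the time point fit, which holds time point and sex as terms. Comparisons within 1 sex or 1 time point, and the interaction of sex with time, came from a fit with 6 groups, 1 for each sex at each time. The SE, the size of the log2 change over the root of F, restates the test. P-values are two-sided. Groups came from the sample titles. The members and gene lists were chosen with earlier results of these data known. Genes named in the text are the members, list genes called against baseline (at most 5 a list) and the 5 genes most like each member, and further list genes (*Extl3*, *Il22ra1*, *Il6*, *Stat3*, *Socs3*) were named for their roles after their values were seen. *Il22* and *Il17a* are named as absent. Promoters and motifs were read from RefSeq, and coding sequences and transcript windows from GENCODE vM21 (biopython 1.88). Correlations used exact permutation tests. Alternatives were DESeq2 1.42.0, other scalings, filters and fits, leaving out each mouse, and, added after seeing the data, leaving out mice 14, 16 and 17.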

Additional observations from a re-analysis of the deposited data

Results flagged for a closer look

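Dixon's test at the 95% level was applied to the extreme mice of 48 groups holding 4 to 10 mice, and chance alone marks about 1 group in 20. It marked 2. *Reg3d* in the day 14 males was 202 CPM in mouse 23 and at most 151 CPM in the other 3, a gap of 0.971 of the range. *Reg3g* at day 14 was 175 CPM in mouse 17 and next 15.01 CPM in mouse 18, a gap of 0.59 of the range over 7 mice.

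The change of *Reg1* at day 7 differed between the sexes by -2.51 on the log2 scale in the test of the interaction, with a rise in males and lower values in females. The part of mice 14 and 16, the males with the highest levels, is given by the fit without mice 14, 16 and 17, in which the difference was -1.88 (adjusted p = 0.0743, edgeR).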

How the results depend on the processing

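Of 399 recomputed counts of members called, shares and correlation counts 350 stayed close to the reported value, and of 2344 recomputed log2 fold changes of single members 2226 kept direction and side of the threshold, 52 lost a call and 34 gained one. The fits without mice 14, 16 and 17, and most alternatives within 1 sex or 1 time point, were added after seeing the data. The number of members called changed as follows. With DESeq2 it went from 0 to 1 at day 14 against baseline and in its female part, from 0 to 4 at day 14 against day 7 and between the sexes at day 14, from 0 to 3 between the sexes over all time points, from 1 to 2 between the sexes at baseline and from 1 to 4 for the interaction at day 7. Total count scaling gave 6 in place of 3 at day 7 and 1 in place of 0 at day 14 against baseline, in its female and male parts and against day 7. It moved the median of all genes by 0.45 at day 7, 0.21 at day 14 and -0.24 between them. At day 7, 1 member rather than 3 was called with at least 10 counts in every mouse, which removes *Reg3a* and *Reg3g*, with only the 2 groups compared in the fit, and without mice 14, 16 and 17. Without those mice 3 rather than 6 were called in males at day 7, 2 rather than 1 between the sexes at baseline, 1 rather than 0 at day 14 against day 7 and over all time points between the sexes, and 0 rather than 1 for the interaction at day 7, as with no filter (0). Leaving out each mouse gave 1 to 4 at day 7 (1 without any baseline male), 0 to 1 in females at day 7, 0 to 1 at day 14 against day 7, 0 to 1 between the sexes at day 14 and 0 to 1 for the interaction at day 7. Without the 20 most abundant genes in the denominator the *Reg* genes took a median of 3.47% of baseline counts in place of 1.06%, 3.73% in place of 1.46% at day 7, and 2.73% in place of 0.922% at day 14.

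Among single members 32 recomputed log2 values changed sign, none of them called. At day 14 against baseline *Reg1* was -0.11 without the covariate and -0.035 to 0.20 with each mouse left out, and *Reg2* was -1.19 without mice 14, 16 and 17 and -1.81 to 1.496 with each mouse left out, in females -2.50 in both cases at the lowest and 1.44 at the highest. Without mice 14, 16 and 17 the change from day 7 to day 14 was 0.034 for *Reg1* and 0.23 for *Reg3d*, and the sex difference at day 7 was 0.22 for *Reg1*, 1.09 for *Reg2*, 1.89 for *Reg3a*, 0.57 for *Reg3b*, 0.37 for *Reg3d* and 0.15 for *Reg3g*. The sex difference over all time points without the covariate was -1.33 for *Reg3a* and -0.083 for *Reg3b*. In day 7 females *Reg3d* was 0.17 with total count scaling, *Reg3a* -0.99 to 0.96 and *Reg3b* -0.33 to 1.24 with each mouse left out. For the interaction at day 14 *Reg3a* was -0.74, *Reg3b* -0.21 and *Reg3g* -1.15 without mice 14, 16 and 17, and leaving out each mouse gave -0.72 to 1.79 for *Reg3a*, -0.20 to 3.16 for *Reg3b*, -0.27 to 0.30 for *Reg3d* and -1.13 to 2.30 for *Reg3g*. The cause of these changes was not tested. No paired analysis was possible because the labels give each mouse a number of its own, and no number is shared between groups. With 3 or 4 mice in a group of sex and time point, the spread of *Reg2*, *Reg3a* and *Reg3b* sets what can be detected, and 0 to 10 counts of *Reg3a* in the baseline males leave its fold changes in males imprecise.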
